A study of Mus musculus with 48 samples.

Results

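The comparison described here is that of *APOE*4 with *APOE*3 in the cerebral cortex of male mice that breathed filtered air, and it used 8 of the 48 mice of the series, 4 of each allele. Its members were the mice labelled male, genotype E3 or E4, and control, together with each gene whose value lay above the no-read value in all 8 of them, which held for 16866 of the 18939 genes used. *APOE*-TR mice are B6 mice in which the mouse gene is replaced by a human allele, so both groups lacked the mouse protein and differed in the human allele they carried. All mice of this exposure had an age of 6 months in the labels, and the controls inhaled filtered air for 5 h a day on 3 days a week over 15 weeks while other mice inhaled nPM, a nano-sized fraction of urban particulate matter. Brains were perfused with saline and the total cortex was taken, so the tissue was a mixture of cell types. In such bulk tissue fewer cells of a type and less RNA per cell cannot be told apart. The groups are also the lines kept for each allele, and any other inherited difference between these lines cannot be told apart from the allele. Males that inhaled nPM and females in filtered air, 8 mice each, were used only to set the same allele difference beside the main one. The 4 B6 males in filtered air, with the mouse *Apoe* gene, an age of 4 months and 8 weeks of exposure, were used for the levels of 1 gene cluster and of a few genes set beside it.

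Apolipoprotein E is the main carrier of cholesterol and other lipids in brain. It is made mostly by astrocytes and, in disease, by microglia. The e4 allele is the strongest common genetic risk factor for late-onset Alzheimer disease, and e3 is the most frequent allele. 

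The 8 libraries held 22.4 to 30.7 M (mega) estimated reads in the listed genes. Each pair of mice of one group correlated across genes at a Pearson r of 0.994 to 0.997 on the log2 scale, a description over genes of the same libraries. The labels of sex were met by the transcripts: *Xist* had 2 to 8 reads in each mouse, and *Ddx3y* averaged 33 ± 4.68 CPM (reads scaled to a common library size, SD, n = 4) in *APOE*3 and 35.4 ± 5.37 CPM in *APOE*4 mice. Mouse *Apoe* (chromosome 7) had 295 to 522 reads in *APOE*3 mice and 305 to 523 reads in *APOE*4 mice, and its level was 10.7 CPM in the first group and 10.8 CPM in the second. Reads were aligned to the mouse genome, so this value is not a measure of the human transcript. Neuron markers did not pass the test in any of 7 genes, with *Snap25* at 2390 and 2407 CPM. Choroid plexus markers stood apart: their summed level was 16.5 to 47.5 CPM in *APOE*3 mice, and 109, 594, 31.9 and 842 CPM in *APOE*4 mice 3, 21, 32 and 91.

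At 5% FDR 74 genes differed between the alleles (limma with Benjamini-Hochberg adjustment), 0.439% of the genes tested. Of these, 29 were higher in *APOE*4 (0.172%) and 45 were lower (0.267%). The median absolute log2 difference of the 74 was 0.82, on the scale of log2(CPM + 0.5) used for all log2 values below, while the median over all genes tested was 0.0589. The absolute log2 difference exceeded 1 in 30 genes, 7 higher and 23 lower. The groups did not overlap in any of the 74, and over all genes tested they did not overlap in 606 (3.59%). An unadjusted p under 0.05 was reached by 980 genes (5.81%), and the median log2 difference of all genes was 0.0011. Of the 74, 57 lay within 5 Mb of another of them, in 13 clusters. Some clusters held only 2 genes, such as *Bub1b* and *B2m* in 3.55 Mb. The number to be found among any 74 tested genes was not determined, so an uneven spread was not tested. The count of 74 was 41 to 59 without one mouse at a time. It was 41 without *APOE*3 mouse 73, 43 without *APOE*4 mouse 91, 46 without *APOE*3 mouse 51 and 49 without *APOE*3 mouse 55. It was 31 without *APOE*4 mice 21 and 91, those with the highest choroid plexus markers. All 74 genes then had the same direction, which groups without overlap nearly fix in advance.

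**Figure D1:**
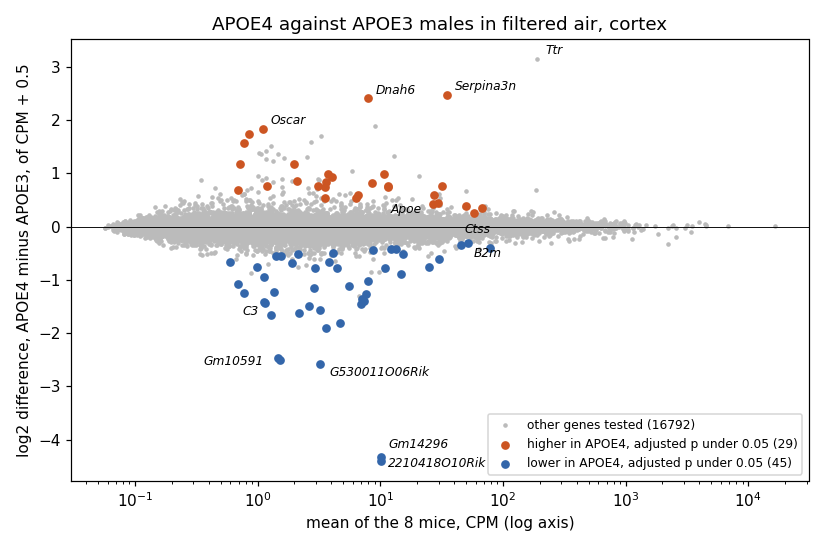
Mean CPM of the 8 mice (log axis) against the log2 difference between *APOE*4 and *APOE*3 males in filtered air for the 16866 genes tested, with the 29 higher and 45 lower genes coloured. A pair of genes near -4.4 lies far below the others, and *Ttr*, a choroid plexus marker with a log2 difference of 3.14, is not among the coloured genes.

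The largest differences came from zinc finger genes of distal chromosome 2. In the 1.65 Mb from 175275125 to 176927814 (mm10), 13 of 16 tested genes (81.2%) were lower in *APOE*4 and none was higher. The bounds of this and the other clusters are the first and last gene that passed, which by itself raises the share. Zinc finger proteins of this type bind DNA and often repress transcription, and their genes lie in arrays of similar copies. Promoters are printed to show how alike these copies are, since reads of like copies can be shared among them. They are RefSeq sequences of build GRCm38.p6 from 250 bases before to 50 bases after the start. Capitals in *Gm14295* mark bases that differ from *Zfp966*, and capitals in *Gm14440* mark those that differ from *Gm4724*. The promoter of *Zfp967* is identical to that of *Zfp966*, and those of *Gm14308* and *Gm14434* are identical to that of *Gm4724*.
Zfp966 (chr2:175931051-175931350, minus strand): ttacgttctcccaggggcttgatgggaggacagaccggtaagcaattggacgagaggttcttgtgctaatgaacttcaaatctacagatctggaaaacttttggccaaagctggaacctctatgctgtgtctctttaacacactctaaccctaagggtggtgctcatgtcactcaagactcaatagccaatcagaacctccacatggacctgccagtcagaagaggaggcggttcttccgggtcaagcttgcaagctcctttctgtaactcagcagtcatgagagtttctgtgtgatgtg
Gm14295 (chr2:176798350-176798649, plus strand): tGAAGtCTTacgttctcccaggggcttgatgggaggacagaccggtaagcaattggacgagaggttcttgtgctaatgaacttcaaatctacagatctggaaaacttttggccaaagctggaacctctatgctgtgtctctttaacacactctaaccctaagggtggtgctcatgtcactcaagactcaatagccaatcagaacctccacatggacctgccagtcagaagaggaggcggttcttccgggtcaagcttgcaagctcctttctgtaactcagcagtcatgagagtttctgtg
Gm4724 (chr2:175435728-175436027, minus strand): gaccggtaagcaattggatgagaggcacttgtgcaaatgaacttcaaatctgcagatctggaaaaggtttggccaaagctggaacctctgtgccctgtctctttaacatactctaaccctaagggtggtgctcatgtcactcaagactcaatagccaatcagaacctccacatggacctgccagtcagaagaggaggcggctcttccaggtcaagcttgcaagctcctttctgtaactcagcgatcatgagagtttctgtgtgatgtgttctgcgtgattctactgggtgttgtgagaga
Gm14440 (chr2:175274875-175275174, plus strand): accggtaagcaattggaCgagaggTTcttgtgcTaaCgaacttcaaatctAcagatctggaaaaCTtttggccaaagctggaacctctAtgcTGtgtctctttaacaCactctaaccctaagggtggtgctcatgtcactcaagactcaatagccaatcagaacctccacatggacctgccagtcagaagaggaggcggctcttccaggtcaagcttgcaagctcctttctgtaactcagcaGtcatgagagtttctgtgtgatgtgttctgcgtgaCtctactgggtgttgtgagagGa
*Gm14295* differed from *Zfp966* by 14 edits, 7 of them bases absent from it, and *Gm14440* from *Gm4724* by 17. Over the 11 members with a promoter entry, the identity of a pair ranged from 53% to 100%. In GENCODE transcripts, 11 of the 12 members matched had another gene at 90% identity or more over at least 50% of their length. The exception was *Gm14296*, by its longest transcript of 5159 bases. The longest transcript of *2210418O10Rik* was contained in a transcript of *Gm14296* at 100% identity over its 3823 bases. The reads of that pair in particular are therefore uncertain, although the authors kept uniquely mapped reads only.

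*2210418O10Rik* (chromosome 2 from 176226565 to 176261873) had 20.1, 19.0, 20.5 and 19.4 CPM in *APOE*3 mice 51, 55, 63 and 73. In *APOE*4 mice 3, 21, 32 and 91 it had 0.402, 0.671, 0.376 and 0.426 CPM. The groups lay far apart: it was nearly silent in each *APOE*4 mouse, with 14 to 21 reads against 680 to 834. On the log2 scale it fell by 4.39 with a standard error of 0.108 (limma, adjusted p = 2.11e-09). *Gm14296* (176892509 to 176927814) averaged 19.7 ± 2.19 and 0.509 ± 0.0869 CPM (SD, n = 4 each), a log2 difference of -4.32. The other 11 members fell less on this scale, and of them *Zfp973* (2.19 and 0.356 CPM in *APOE*3 and *APOE*4) and *Zfp965* (1.88 and 0.392 CPM) were as low in *APOE*4 from lower *APOE*3 levels. *Gm14305* had 6.10, 4.81, 7.26 and 5.71 CPM in *APOE*3 mice and 1.18, 1.25, 1.39 and 1.02 CPM in *APOE*4 mice, a log2 difference of -1.91. *Gm14295* averaged 7.55 ± 0.655 and 1.82 ± 0.32 CPM. In none of these genes did the alleles overlap. Across the 13 genes the log2 difference ran from -4.39 (*2210418O10Rik*) to -1.15 (*Gm14440*), with a median of -1.496 and a largest adjusted p of 0.00117 (*Zfp973*, limma). The 3 other tested genes of the interval had log2 differences from -0.49 to 0.05. In B6 males in filtered air, younger and exposed for less time, from a table normalized separately, *2210418O10Rik* averaged 1.91 CPM and *Gm14296* 5.70 CPM. All 12 of the 13 genes listed there were below their lowest *APOE*3 value in each B6 mouse. The share of all genes that were so was not counted, and the B6 male libraries held 2.05 to 17.2 M reads. Outside the cluster, *Rdh13* (6.67 CPM in B6) and *Clec16a* (13.9 CPM) were also below their lowest *APOE*3 value in each B6 mouse, while *B2m* (133.6 CPM) was above its highest. A level below *APOE*3 in B6 is therefore not particular to this cluster.

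**Figure D2:**
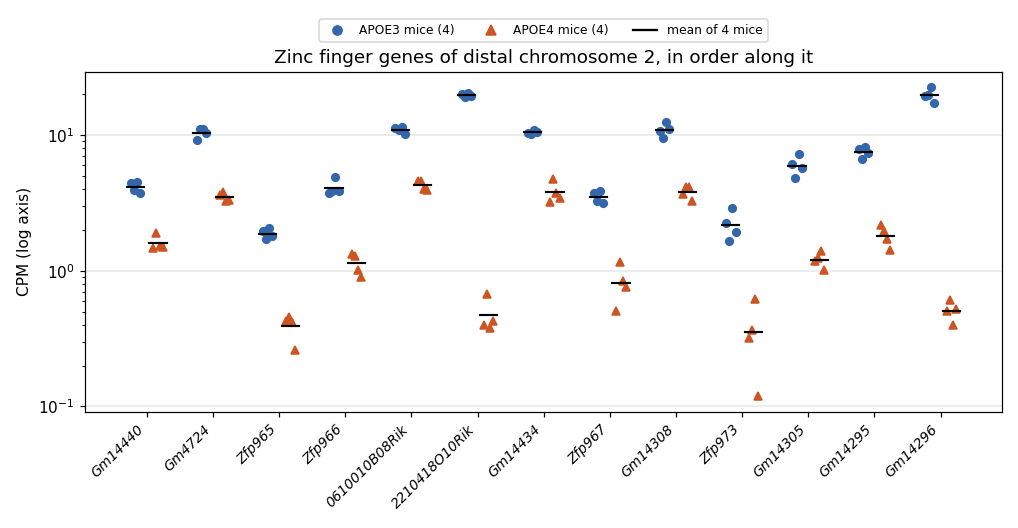
CPM (log axis) of the 13 zinc finger genes of distal chromosome 2 that differed, in order along the chromosome, with a point for each *APOE*3 and *APOE*4 mouse in filtered air and a line at the mean of 4 mice. In every gene the *APOE*4 points lie below the *APOE*3 points, and the gap is widest in *2210418O10Rik* and *Gm14296*.

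A second group held serpins of chromosome 12. *Serpina3n*, a secreted inhibitor of serine proteases that astrocytes raise in injury and inflammation (104406708 to 104414330), had 9.02, 11.5, 10.9 and 9.999 CPM in *APOE*3 mice. It had 72.6, 51.8, 57.7 and 56.9 CPM in *APOE*4 mice. Each *APOE*4 mouse lay far above each *APOE*3 mouse, and the means were 10.4 ± 1.09 and 59.8 ± 8.98 CPM (SD, n = 4 each), 5.77 times as high in *APOE*4. The log2 difference was 2.47 (standard error 0.106, adjusted p = 5.16e-07, limma), the smallest p among the genes that were higher. *Serpina3f* (104214544 to 104221130) rose as well, from 0.143 ± 0.0635 to 1.4 ± 0.105 CPM with a log2 difference of 1.57, on 1 to 6 reads in *APOE*3 mice and 43 to 69 in *APOE*4 mice. *Serpina3h*, annotated as a transcribed pseudogene (104247896 to 104254406), went the other way, from 1.31 ± 0.406 to 0.253 ± 0.125 CPM (log2 difference -1.25, adjusted p = 0.00551, limma). *Serpina3m* (104387164 to 104394258) stood outside the fit because *APOE*3 mice had no read. Its counts were 76, 37, 77 and 86 reads in *APOE*4 mice 3, 21, 32 and 91. Against a floor of 3 reads per library it was at least 19.3-fold higher in *APOE*4. *Serpina3f*, *Serpina3h* and *Serpina3m* each had another gene at 90% identity or more over at least 50% of the transcript, and *Serpina3n* had none, its nearest match being *Serpina3i* at 82.1% identity.

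The RefSeq promoters of *Serpina3n* and *Serpina3f* (GRCm38.p6) are printed because both genes rose, and capitals mark the letters TTCNNNGAA, the palindrome that STAT factors bind, searched on both strands.
Serpina3n (chr12:104406458-104406757, plus strand): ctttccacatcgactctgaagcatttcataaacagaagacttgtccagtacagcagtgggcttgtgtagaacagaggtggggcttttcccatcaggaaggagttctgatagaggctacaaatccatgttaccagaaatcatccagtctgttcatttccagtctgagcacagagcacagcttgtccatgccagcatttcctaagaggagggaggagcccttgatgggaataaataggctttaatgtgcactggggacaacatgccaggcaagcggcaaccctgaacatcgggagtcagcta
Serpina3f (chr12:104214294-104214593, plus strand): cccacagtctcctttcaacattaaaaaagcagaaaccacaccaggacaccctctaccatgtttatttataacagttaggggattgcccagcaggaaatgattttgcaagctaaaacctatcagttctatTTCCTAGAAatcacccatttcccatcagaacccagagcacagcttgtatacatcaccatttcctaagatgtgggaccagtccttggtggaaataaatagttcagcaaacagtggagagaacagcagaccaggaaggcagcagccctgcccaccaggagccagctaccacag
The letters are in the window of *Serpina3f* and not in that of *Serpina3n*, and they are found in 8.30% of 32851 promoters of the same length. The pair of windows had 62% identity.

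Other genes of the same 5.80 Mb (100276609 to 106077411), where 6 of 57 tested genes passed, were moderately higher. *Vrk1*, a nuclear kinase, rose by 0.59 and the noncoding *Gm10432* by 0.86. They passed in 2 and 8 of the 8 fits that left out 1 mouse. Elsewhere on chromosome 12, all 4 tested genes from 55080496 to 55217169, bounds set by these same genes, were higher. They were *Srp54a* (0.44) and *Srp54b* (0.42), which encode a signal recognition particle subunit, and *Fam177a* (0.76) and *1700047I17Rik2* (0.74). Of the 8 fits that left out 1 mouse, they passed in 1, 0, 6 and 2. The 4 genes are near copies in pairs, as the longest transcript of *1700047I17Rik2* lay in *Fam177a* at 100% identity over its 3863 bases. *Fam177a* had 7.96, 8.58, 10.1 and 7.42 CPM in *APOE*3 and 13.9, 17.4, 14.5 and 13.1 CPM in *APOE*4 mice, without overlap.

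Copies of the chemokine gene *Ccl21* and their neighbours on chromosome 4 were lower in *APOE*4. CCL21 draws lymphocytes and dendritic cells that bear CCR7. Between 41903613 and 42853889, 4 of 10 tested genes passed and all 4 were lower. *Gm10591* had 78 to 160 reads in *APOE*3 mice and 2 to 5 in *APOE*4 mice, with means of 2.96 ± 0.646 and 0.101 ± 0.028 CPM, and fell by 2.51 on the log2 scale with a standard error of 0.129 (limma, adjusted p = 2.85e-06). *Gm21541* was alike, at 2.86 ± 0.617 and 0.0993 ± 0.0399 CPM. *Gm3893* (-1.56) and *Fam205a1* (-0.78) fell as well. A further 5 copies were left out of the fit since some *APOE*4 mice had no read: *Ccl21a*, *Ccl21b*, *Gm13304* and, on unplaced pieces of chromosome 4, *Ccl21c* and *Gm1987*. *Ccl21a* had 42, 105, 59 and 63 reads in *APOE*3 mice 51, 55, 63 and 73 and 2, 0, 0 and 1 reads in *APOE*4 mice 3, 21, 32 and 91. *Ccl21b* had 61, 158, 71 and 106 reads against 0, 0, 2 and 3. The 5 genes had 39 or more reads in every *APOE*3 mouse and 3 or fewer in every *APOE*4 mouse. Genes outside the fit were named because the alleles did not overlap and each mouse of the higher group had at least 10 reads, so their values are a description with no test. The RefSeq promoters of *Ccl21a* and *Gm13304* show how close some of the copies are, with capitals in *Gm13304* where it differs from *Ccl21a*.
Ccl21a (chr4:42773942-42774241, minus strand): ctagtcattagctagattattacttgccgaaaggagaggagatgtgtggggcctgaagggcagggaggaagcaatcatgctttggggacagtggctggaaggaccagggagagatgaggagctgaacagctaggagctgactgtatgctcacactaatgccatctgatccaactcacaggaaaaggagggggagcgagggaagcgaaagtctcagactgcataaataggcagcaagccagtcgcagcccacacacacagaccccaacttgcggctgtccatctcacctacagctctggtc
Gm13304 (chr4:42114537-42114836, plus strand): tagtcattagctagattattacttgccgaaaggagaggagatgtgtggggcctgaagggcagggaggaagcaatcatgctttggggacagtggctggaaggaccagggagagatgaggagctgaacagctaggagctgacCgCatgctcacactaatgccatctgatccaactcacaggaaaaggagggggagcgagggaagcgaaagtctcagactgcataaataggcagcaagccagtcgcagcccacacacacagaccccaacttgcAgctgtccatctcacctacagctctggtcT
They differed by 5 edits, and the promoter of *Gm10591* was identical to that of *Gm13304*. The promoter entry under the symbol *Ccl21b* (42172870 to 42173169) lies away from the listed gene (42255731 to 42256826), so its likeness is not given. Each of the 5 copies with a GENCODE transcript had another gene at 90% identity or more over at least 50% of it. The levels of single copies are therefore uncertain, and the decrease is that of the group.

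A cluster at the proximal end of chromosome 7 (3289038 to 4970962) held 8 differing genes of 53 tested, 6 higher and 2 lower. It lies on the same chromosome as *Apoe* (19696244 to 19699189), and whether the 2 places are inherited together was not tested. *Oscar*, an immunoglobulin-like receptor of myeloid cells, had 0.236, 0.250, 0.179 and 0.140 CPM in *APOE*3 mice and 2.09, 2.32, 1.81 and 1.78 CPM in *APOE*4 mice, and rose by 1.83 on the log2 scale with a standard error of 0.103 (limma, adjusted p = 5.03e-06). *Ptprh*, a receptor tyrosine phosphatase, had 2 to 5 reads in *APOE*3 mice and 46 to 86 in *APOE*4 mice, with a log2 difference of 1.74. Both were barely detected in *APOE*3 and clearly present in each *APOE*4 mouse. *Eps8l1*, an actin regulator, was higher by 1.18, and *Tnnt1*, a slow muscle troponin T, by 0.68. Among abundant genes, *Mboat7*, an acyltransferase of phosphatidylinositol, rose by 0.35 (59.2 ± 3.61 and 75.6 ± 2.80 CPM). *Myadm*, a membrane protein gene, rose by 0.25 (52.7 ± 1.23 and 62.9 ± 1.81 CPM). *Mboat7* passed in 3 of the 8 fits that left out 1 mouse and *Myadm* (adjusted p = 0.0487, limma) in 0. *Myadm* had a log2 difference of 0.057 in males with nPM. *Rdh13*, a mitochondrial retinol dehydrogenase, fell from 31.7 ± 1.94 to 18.5 ± 0.912 CPM (-0.76, adjusted p = 0.000116, limma), and *Sbk3*, a kinase, fell by 0.56. They passed in 8 and 2 of the 8 fits that left out 1 mouse.

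Around *Apoe* itself, 46 genes within 1 Mb were tested and none passed, with log2 differences from -0.24 to 0.39, a median of 0.01 and a smallest adjusted p of 0.504 (limma). An unadjusted p under 0.05 was reached by 2 of them, *Fosb* (0.39) and *Klc3* (0.38).

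*Dnah6*, an axonemal dynein heavy chain, was the most raised gene outside a cluster (chromosome 6 from 73017606 to 73221632). It had 1.86, 2.54, 2.41 and 1.85 CPM in *APOE*3 mice and 12.4, 17.03, 11.4 and 13.9 CPM in *APOE*4 mice, 6.32 times as high on average, and rose by 2.41 on the log2 scale with a standard error of 0.138 (limma, adjusted p = 5.15e-06). The lowest *APOE*4 mouse was far above the highest *APOE*3 mouse. At the other end, *G530011O06Rik*, a noncoding gene of the Y chromosome end, fell from 5.96 ± 2.34 to 0.518 ± 0.0248 CPM (-2.57), and its neighbour *Erdr1*, outside the fit, had 27, 201, 58 and 175 reads in *APOE*3 and 0, 0, 1 and 0 reads in *APOE*4 mice. Both lie at a chromosome end that X and Y share, where the assembly is incomplete.

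Of the 74, 10 genes known from microglia and immune cells, *Oscar* included, are described together, a grouping made after their values were seen and not tested, and 8 of them were lower in *APOE*4, where 45 of all 74 were. *C3*, the central complement protein, had 2.33, 0.772, 2.56 and 2.10 CPM in *APOE*3 mice and 0.509, 0.183, 0.332 and 0.450 CPM in *APOE*4 mice, on 33 to 85 and 5 to 18 reads. The lowest *APOE*3 mouse, 55, was close above the *APOE*4 mice, and the log2 difference was -1.43 (standard error 0.246, adjusted p = 0.0382, limma). It passed in 1 of the 8 fits that left out 1 mouse, that without *APOE*3 mouse 55 (-1.72, adjusted p = 0.000287, limma), and the adjusted p of the other 7 was 0.0593 to 0.147. *Mpeg1*, the macrophage perforin, fell from 36.5 ± 2.38 to 23.6 ± 2.21 CPM (-0.62, adjusted p = 0.00301, limma) and passed in each of the 8 fits that left out 1 mouse. *Ctss*, the lysosomal protease cathepsin S (51.1 ± 2.25 and 40.2 ± 3.06 CPM), and *B2m*, the light chain of MHC class I (57.4 ± 2.87 and 45.8 ± 1.82 CPM), differed less, by -0.34 and -0.32. The same direction was seen in the microglial lectin *Siglech* (-0.42), the SLAM family receptors *Cd84* (-0.69) and *Slamf9* (-0.66) and the checkpoint ligand *Cd274* (-0.51). *Fcgr2b*, the inhibitory Fc receptor, was higher in *APOE*4 by 0.74, as *Oscar* was. Adjusted p values of these last 7 genes lay between 0.0403 and 0.048, and they passed in at most 2 of the 8 fits that left out 1 mouse, with *Ctss*, *Siglech*, *Cd84* and *Cd274* passing in none. *Fcgr2b*, *Cd84* and *Slamf9* are neighbours, with the protease gene *Adamts4*, in 1.52 Mb of chromosome 1 (170960558 to 172478410), where 4 of 47 tested genes passed. The summed level of the 7 microglia markers was 239.9 to 257.5 CPM in *APOE*3 and 220.3 to 263.3 CPM in *APOE*4 mice, and none of them passed. Of these markers 4 had values below 0 on the log2 scale and 3 above, with a median of -0.06.

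**Figure D3:**
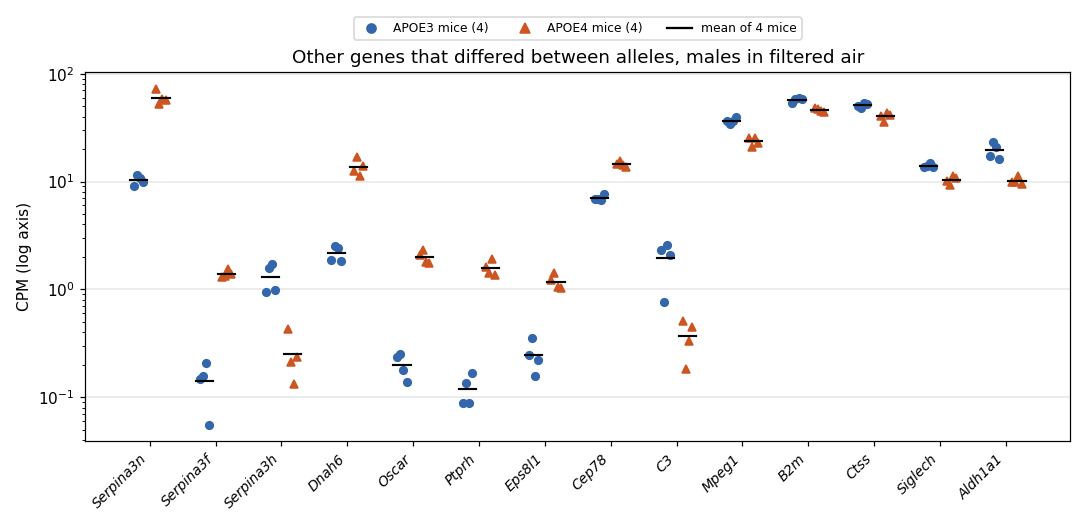
CPM (log axis) of 14 genes outside the zinc finger cluster that differed, with a point for each *APOE*3 and *APOE*4 mouse in filtered air and a line at the mean of 4 mice. *Serpina3n*, *Serpina3f*, *Dnah6*, *Oscar* and *Ptprh* are higher in each *APOE*4 mouse, *C3* is lower with 1 *APOE*3 mouse at 0.772 CPM, and *B2m*, *Ctss* and *Siglech* are lower by a narrow margin.

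The remaining genes had mixed roles, and some passed in few of the 8 fits that left out 1 mouse. *Nfu1*, *Anxa4*, *Hps1* and *9930104L06Rik* passed in 0 of them. *Ints7*, *Sesn2*, *Zc2hc1a*, *Gm13251*, *Dctd* and *L3hypdh* passed in 1, and *Bub1b*, *Ninj2* and *Clec16a* in 2. On chromosome 19, *Cep78*, a centrosomal protein gene, rose from 7.04 ± 0.393 to 14.4 ± 0.750 CPM (0.99, adjusted p = 4.43e-05, limma), *Gcnt1*, a glycan-branching enzyme, rose by 0.92, and *Aldh1a1*, which makes retinoic acid from retinal, fell from 19.5 ± 3.33 to 10.1 ± 0.716 CPM (-0.90) beside the noncoding *E030003E18Rik* (-0.94). Further along it, *Pyroxd2* rose by 1.16 while its neighbour *Hps1*, needed for lysosome-related organelles, fell by 0.49. On chromosome 6 the acetyltransferase relative *Nat8f5* fell from 1.13 ± 0.177 to 0.266 ± 0.0475 CPM (-1.08), *Nfu1*, an iron-sulfur cluster scaffold, fell by 0.45, *Ninj2*, an adhesion protein, fell by 0.76, and *Anxa4*, a calcium-binding annexin, and *8430408G22Rik* rose by 0.53 and 0.76. The epidermal secreted proteins *Dmkn* and *Sbsn*, neighbours on chromosome 7, fell by 1.23 and 0.78. *Adamts4*, a protease of the extracellular matrix, fell by 0.78 and *Hmgn2*, a nucleosome-binding protein, by 0.52. Among the others that rose were *Bub1b*, a spindle checkpoint kinase (0.75), *Ints7*, an Integrator subunit (0.58), the stress-induced *Sesn2* (0.54), the noncoding *Pantr1* (0.76), *Zc2hc1a* (0.39), *Gm13251* (0.83) and *Adgrg6*, an adhesion receptor of myelinating glia (0.98). *Clec16a* (-0.41), *Dctd*, a deoxycytidylate deaminase (-0.67), *L3hypdh* (-0.55), *9930104L06Rik* (-0.42), *Gm1943* (-1.12) and *4933409K07Rik*, on an unplaced piece of chromosome 4 (-1.02), fell. The antisense gene *Arhgap33os*, outside the fit, had 12, 10, 15 and 22 reads in *APOE*4 mice and 0, 1, 2 and 1 in *APOE*3 mice. The library kit kept strand, but no source used here states whether the counting did, so antisense and sense reads may be mixed.

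The allele difference was set beside that in 16 mice that had no part in the comparison. Among males that inhaled nPM, 84 genes of 16861 passed (0.498%), and 71 of the 74 genes could be tested there. All 71 had the same direction, where 59.2% of all genes did, and 47 passed again. *2210418O10Rik* averaged 19.7 CPM in *APOE*3 and 0.375 CPM in *APOE*4 males with nPM (-4.53), and *Serpina3n* 11.8 and 61.6 CPM (2.29). Among females in filtered air, 38 genes of 16419 passed (0.231%), and 6742 (41.1%) had an unadjusted p under 0.05, where 5.81% did in the main comparison. There 59 of 71 genes had the same direction, where 52.2% of all genes did, and 24 passed again. All 13 zinc finger genes passed in both sets, with log2 differences from -4.56 to -1.10 in males with nPM and from -4.47 to -1.29 in females. *Serpina3n* averaged 7.80 and 60.7 CPM in females (2.73, adjusted p = 0.0695, limma). *B2m* had a log2 difference of -0.28 in males with nPM and 0.01 in females, *C3* had -1.34 and -1.51 without passing in either, and *Pantr1* had 0.63 and -0.29. The count in females moved from 15 to 6401 when 1 mouse was left out, and the highest count came without *APOE*3 female 52. The female libraries also differed by allele: the 100 most abundant genes held 24.93% to 34.65% of the summed CPM in *APOE*3 and 20.71% to 23.72% in *APOE*4 females.

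**Figure D4:**
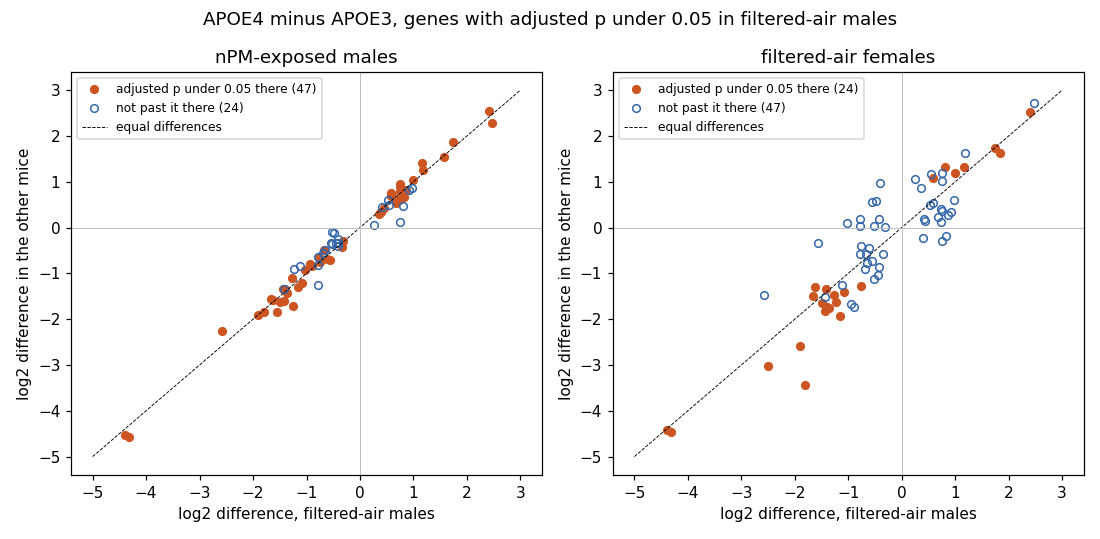
Log2 difference between *APOE*4 and *APOE*3 in filtered-air males (horizontal) against that in nPM-exposed males (left) and filtered-air females (right), for the genes of the 74 that could be tested there, with filled points where the adjusted p was under 0.05. All 71 points of the left panel and 59 of 71 in the right panel have the same sign on both axes.

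Whether the allele difference itself changed was tested as an interaction. Between nPM and filtered air no gene of 16578 passed (limma, smallest adjusted p = 1), and 402 had an unadjusted p under 0.05 (2.42%). Among the 71 genes 3 did: *8430408G22Rik*, *Hps1* and *Cd274*, each with a smaller difference in nPM. The 71 were chosen for their difference in filtered-air males, and that choice alone favours a smaller one in other mice. Between the sexes no gene of 16222 passed (limma, smallest adjusted p = 0.0865) and 5837 had an unadjusted p under 0.05 (36.0%), of which 29 were among the 71. A shared variance over 32 mice gave 5182 genes for this interaction, and 6342 and 4449 genes passed without *APOE*3 females 52 and 63.

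In 5 of the gene lists chosen for the tissue and the study's questions 1 or more of the 74 were found, beside 0.439% of all genes tested. The serpin list had 3 of 16 tested genes (*Serpina3n*, *Serpina3f* and *Serpina3h*), with a median log2 difference of 0.03 where that of all genes was 0.0011. The microglial activation list had 2 of 15 (*B2m* and *Ctss*), complement 1 of 17 (*C3*), interferon and antigen presentation 1 of 20 (*B2m*) and reactive astrocyte 1 of 18 (*Serpina3n*). In interferon and antigen presentation 11 of the 20 genes had an unadjusted p under 0.05, which 5.81% of all genes had, all lower in *APOE*4, and the median was -0.27, with *H2-K1* at 15.7 and 12.4 CPM and *Irf7* at 1.17 and 0.732 CPM in *APOE*3 and *APOE*4. In complement 4 of the 17 genes did, all lower: *C3*, its receptor gene *C3ar1* (-0.53), *C1qb* (-0.45) and *C1qc* (-0.31), while *C1qa* had -0.11. Of the 15 microglial activation genes tested, 12 had values below 0 on the log2 scale and 3 above, with a median of -0.09. Among those below were *Tyrobp* (-0.42, adjusted p = 0.218, limma) and *Lyz2* (-0.44, adjusted p = 0.329, limma). The reactive astrocyte list had a median of -0.04, and in it *Gbp2* had -0.35 and *Fkbp5* 0.27.

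Lists of lipoprotein and cholesterol genes (28 tested), amyloid and tau genes (20), NRF2 targets (21) and NFKB genes (16) had none of the 74. In lipoprotein and cholesterol genes no member had an unadjusted p under 0.05, with *Abca1*, the lipid exporter that loads apolipoprotein E, at 35.1 and 31.6 CPM and *Abcg1* at 53.4 and 57.2 CPM. The amyloid and tau list had no such member either, and *Bin1* averaged 85.3 and 92.8 CPM. In NRF2 targets *Nqo1* had a log2 difference of 0.22 and *Hmox1* of 0.14, and in NFKB genes *Nfkbia* had 0.28 and *Vcam1* -0.21, none passing. Circadian clock, immediate early, iron and metallothionein, glutamate receptor and synapse, and B6 substrain lists also had no gene that passed.

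Cell type markers did not pass in any of 12 lists, but some moved together. All 7 choroid plexus markers had an unadjusted p under 0.05 and were higher in *APOE*4, with a median log2 difference of 1.36. *Ttr* had 10.6, 38.3, 15.8 and 20.3 CPM in *APOE*3 mice and 92.1, 545, 21.6 and 788 CPM in *APOE*4 mice, so the alleles overlapped through *APOE*4 mouse 32. Single mice were higher still in 4 of the other 6 *APOE*-TR groups, at 977 to 1488 CPM summed, while the nPM females of both alleles had 9.49 to 96.5 CPM. Endothelial markers had a median of -0.24 and mural markers one of -0.245, with 3 and 4 genes at an unadjusted p under 0.05, all lower, such as *Rgs5* at 85.0 and 69.5 CPM. Striatal markers were lower in all 7 genes with a median of -0.28, none at an unadjusted p under 0.05, and their summed level was 697 to 1223 CPM in *APOE*3 and 416 to 1069 CPM in *APOE*4 mice. Astrocyte markers were lower in all 7 genes with a median of -0.097, of which *Aqp4* (-0.31) and *Slc1a2* (-0.20) had an unadjusted p under 0.05. Their summed level was 3633 to 3847 CPM in *APOE*3 and 3104 to 3396 CPM in *APOE*4 mice. Blood markers had a median of 0.50 with 1 gene, *Alas2*, at an unadjusted p under 0.05. The part of these cell types in the 74 genes was not tested.

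**Figure D5:**
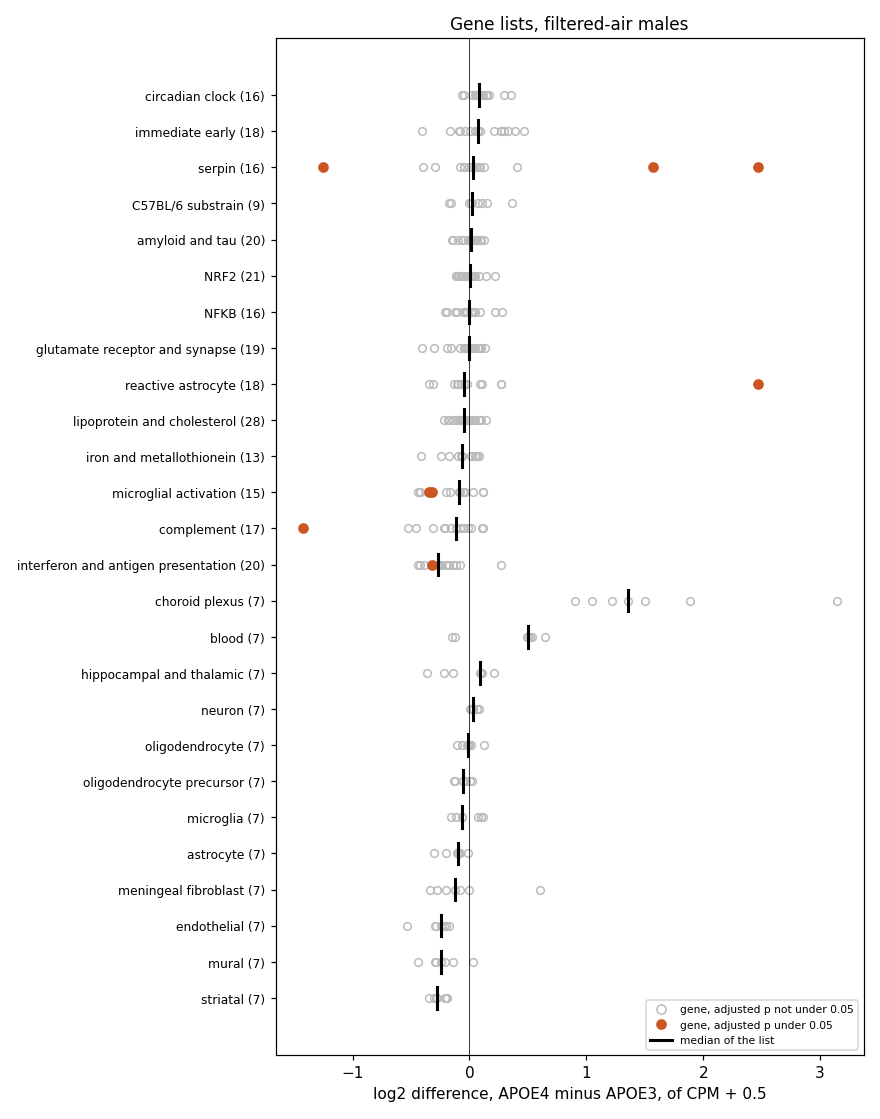
Log2 difference between *APOE*4 and *APOE*3 males in filtered air for each tested gene of the lists (number of tested genes in brackets), with filled points for adjusted p under 0.05 and a bar at each list's median. Choroid plexus markers lie to the right, with a median of 1.36, while interferon and antigen presentation lies to the left, with a median of -0.27.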

How the data were processed

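RNA of mouse cerebral cortex was extracted with TRIzol and sequenced from stranded mRNA libraries as single-end reads. Per the labels' processing notes and the study's methods, the authors aligned reads to mm10 (GRCm38) with TopHat2 (2.0.8b), kept uniquely mapped reads and quantified RefSeq genes in Partek Flow. The deposited values are CPM made by the authors, in separate tables for the *APOE*-TR and B6 exposures that were normalized separately. Of 18943 listed genes, 4 listings of repeated symbols were dropped. Reads were recovered as the CPM divided by the lowest value of the mouse, minus 1, since 93.8% to 94.0% of low values (up to 30 times the lowest) were whole multiples of it within 0.02. The lowest value was 0.0221 to 0.0305 CPM and was read as no reads. A count of 0 reads allows up to 3, and this floor covers counting error only.

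Groups followed the labels. Values were rescaled by TMM and fitted as log2(CPM + 0.5) with limma 3.58.1 (R 4.3.3) and a mean-variance trend, with 5% FDR by Benjamini-Hochberg over all genes tested, after the method of the study. This fit, not a count model, is the main one, since CPM are not counts. An added pseudocount understates the change of low genes. Interactions used the same model over 16 mice. Genes outside the fit are described with no p, since those named were chosen for alleles that did not overlap, which sets the exact permutation p at its smallest value. Replicates are separate mice. Alternatives were voom, edgeR 4.0.16 (quasi-likelihood) and DESeq2 1.42.0 on recovered reads, other scalings, pseudocounts and filters, a shared variance and leaving out each mouse. Scripts were tested on simulated data. Clusters joined genes that passed within 5 Mb of each other and ran from the first to the last of them. Named were the genes that passed, *Apoe* and its neighbours within 1 Mb, the sex checks, list members that passed or otherwise those with the smallest p, and genes outside the fit with no overlap between alleles and 10 or more reads in every mouse of the higher group. A gene that passed and a marker gene are not reported here. Members and lists were chosen with earlier results of these data known. Promoters came from RefSeq (57 of the 74 genes matched) and transcripts from GENCODE M21 (69 matched), compared with BLAST 2.17.0. An *APOE*3 female column whose number matches no sample was used by its group.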

Additional observations from a re-analysis of the deposited data

Results flagged for a closer look

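In 148 groups of 4 mice (each of the 74 genes in each allele), 1 mouse stood apart from the other 3 by Dixon's test in 6, and chance alone marks about 1 group in 20. *Zfp966* was highest in *APOE*3 mouse 63, at 4.94 CPM against 3.77 to 3.86 CPM in the others. *Gm13251* was highest in the same mouse, at 3.48 CPM against 2.16 to 2.18 CPM. *Clec16a* was highest in *APOE*3 mouse 55, at 104.2 CPM against 83.5 to 85.2 CPM. *Gm14440* was highest in *APOE*4 mouse 21, at 1.89 CPM against 1.47 to 1.53 CPM. *Pyroxd2* was highest in *APOE*4 mouse 91, at 4.71 CPM against 2.28 to 2.48 CPM. *Bub1b* was lowest in *APOE*4 mouse 32, at 3.16 CPM against 4.26 to 4.50 CPM. In each of these genes the alleles did not overlap, with these mice included.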

How the results depend on the processing

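The count of 74 genes was 71 with voom, 70 with edgeR, 71 without TMM, 73 with size factors, 73 and 68 with pseudocounts of 0.1 and 2, 62 with no filter and 61 with at least 10 reads in every mouse. It was 140 with DESeq2 (59 higher, 81 lower) and 36 with a shared variance over 32 mice (11 and 25), and the cause was not tested. Without 1 mouse it was 41 to 59. Without *APOE*4 mice 21 and 91, an alternative chosen after seeing the data, it was 31 with 6 mice, and 29 of these were among the 74. None of the 74 reversed in any of these fits that could test it, which groups without overlap nearly fix in advance. Apart from the fit without both mice, 31 passed in every fit that could test them, 36 passed in each of the 8 fits without 1 mouse, edgeR called 68 of them and DESeq2 74. Among males with nPM the count without 1 mouse was 53 to 104, and among females in filtered air 15 to 6401. The interaction with nPM was 0 in each fit tried, with 402 genes at an unadjusted p under 0.05, and the interaction with sex was 5182 with a shared variance over 32 mice and 0 to 6342 without 1 mouse. No paired analysis was possible because the *APOE*3 and *APOE*4 males share no animal number. With 4 mice a side and few reads in low genes, small differences may go undetected.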
